A study of Saccharomyces cerevisiae S288C and Saccharomyces paradoxus NRRL Y-17217 and Saccharomyces mikatae IFO 1815 with 8 samples.

Results

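The transcriptome of S. mikatae was compared with that of S. paradoxus, a pair of wild relatives of budding yeast, by RNA-Seq of 2 cultures of each. Members of the comparison were chosen by annotation and by read uniqueness, not by expression. A gene entered if it was listed once in the sheets of both species, if its annotated length was 0.9 to 1.1 of the S. cerevisiae gene in both, and if at least 90% of its aligned reads were unique in each of the 4 libraries. Of 6599 genes listed once in S. cerevisiae, 3437 met these conditions. Of the remainder, 2286 were absent or listed more than once in S. mikatae or S. paradoxus, 658 differed in length and 218 shared reads with other places. In the whole series 8 libraries were deposited, and 2739 genes met the same conditions in all 4 species. No statement here covers a gene outside the set.

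The S. mikatae group was the strain IFO1815 and the S. paradoxus group was the strain Y-17217, each diploid and prototrophic, with replicates 1 and 2 grown from independent isolates in independently made medium. According to the study's methods, all cultures were grown at an exponential density in minimal glucose medium with no amino acids added, whereas the sample labels describe complete medium, and which of these applies could not be told from the counts. Replicate 1 of every species was prepared on one day and replicate 2 on another, so each S. mikatae library has an S. paradoxus library of its own day. One strain stands for each species, and a difference between strains and one between species cannot be told apart. RNA was depleted of ribosomal RNA and sequenced as short reads that keep the strand. Each value below is a count of reads that aligned uniquely to a gene in the genome of its own species. The gene set held 4762742 and 5113111 such reads in S. mikatae replicates 1 and 2, and 3332847 and 5121495 in S. paradoxus replicates 1 and 2.

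A yeast growing on glucose ferments it, and as glucose falls it stores glucose as trehalose and glycogen, builds its respiratory chain and opens the glyoxylate cycle and peroxisomal beta-oxidation, which let it use acetate and fatty acids. The stress factors Msn2 and Msn4 bind short sites called stress response elements (STRE) upstream of many storage and protection genes. Other regulators work on single nutrients. Zap1 activates zinc transporters when zinc is scarce, and GATA factors activate allantoin and other nitrogen genes when good nitrogen sources are lacking. Genes needed for mating are turned off in diploid cells.

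Upstream sequences were read in the S. cerevisiae R64 assembly of RefSeq for genes on which the results below turn, since no genome of the 2 compared species was used here. Each run is the 300 bases before the coding start, 5′ to 3′, and it is S. cerevisiae sequence, not that of S. mikatae or S. paradoxus. In the first group, capitals mark AGGGG on either strand, the core of the STRE. TPS1 makes trehalose, GLC3 branches glycogen and PAI3 encodes an inhibitor of the vacuolar protease Pep4. All were higher in S. mikatae.
TPS1, chrII:490393-490692, minus strand: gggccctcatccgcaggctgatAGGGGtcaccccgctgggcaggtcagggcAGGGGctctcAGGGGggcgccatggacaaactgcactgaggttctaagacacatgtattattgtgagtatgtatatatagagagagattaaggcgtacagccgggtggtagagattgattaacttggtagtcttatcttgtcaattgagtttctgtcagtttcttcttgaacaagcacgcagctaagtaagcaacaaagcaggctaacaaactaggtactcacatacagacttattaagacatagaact
GLC3, chrV:132820-133119, plus strand: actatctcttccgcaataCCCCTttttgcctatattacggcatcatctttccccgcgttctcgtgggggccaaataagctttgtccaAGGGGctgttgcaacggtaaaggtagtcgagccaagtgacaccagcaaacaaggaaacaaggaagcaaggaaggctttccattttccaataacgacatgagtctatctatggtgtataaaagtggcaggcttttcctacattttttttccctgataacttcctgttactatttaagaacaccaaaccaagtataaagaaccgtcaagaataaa
PAI3, chrXIII:610366-610665, minus strand: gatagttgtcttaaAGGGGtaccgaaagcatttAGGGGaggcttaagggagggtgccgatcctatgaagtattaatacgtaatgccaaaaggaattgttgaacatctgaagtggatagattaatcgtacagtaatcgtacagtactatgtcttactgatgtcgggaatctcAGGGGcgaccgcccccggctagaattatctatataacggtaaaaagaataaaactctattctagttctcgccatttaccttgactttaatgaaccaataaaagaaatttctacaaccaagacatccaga

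For ZRT1, the high-affinity zinc transporter, capitals mark the Zap1 site on either strand, which is ACCTT, any base and then AAGGT. This gene had the largest read counts among the 15 lowest ratios.
ZRT1, chrVII:20678-20977, plus strand: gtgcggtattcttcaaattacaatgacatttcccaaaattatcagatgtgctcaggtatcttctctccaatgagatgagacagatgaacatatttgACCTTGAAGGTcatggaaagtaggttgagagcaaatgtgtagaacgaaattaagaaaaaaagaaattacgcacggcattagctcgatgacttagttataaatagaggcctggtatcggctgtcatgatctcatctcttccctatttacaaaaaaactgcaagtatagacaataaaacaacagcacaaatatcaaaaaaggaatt

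DAL2, which encodes allantoicase, and DAL4, the allantoin permease, are next to each other on chromosome IX and differed in opposite directions. Capitals mark GATAAG on either strand, a core that GATA factors bind.
DAL2, chrIX:410507-410806, plus strand: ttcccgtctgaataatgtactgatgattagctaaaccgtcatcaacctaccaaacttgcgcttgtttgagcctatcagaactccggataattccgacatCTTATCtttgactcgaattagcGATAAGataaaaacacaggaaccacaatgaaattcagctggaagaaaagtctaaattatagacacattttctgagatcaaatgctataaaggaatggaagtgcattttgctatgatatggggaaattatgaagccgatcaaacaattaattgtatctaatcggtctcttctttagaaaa
DAL4, chrIX:408168-408467, plus strand: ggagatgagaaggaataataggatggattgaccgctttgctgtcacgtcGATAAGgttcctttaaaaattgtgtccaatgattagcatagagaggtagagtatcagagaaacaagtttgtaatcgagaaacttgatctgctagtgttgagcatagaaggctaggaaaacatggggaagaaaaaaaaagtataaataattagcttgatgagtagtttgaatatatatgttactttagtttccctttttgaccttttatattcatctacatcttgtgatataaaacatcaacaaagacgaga

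The AGGGG core occurred in the same window of 22.2% of 6007 S. cerevisiae coding genes. It occurred in 33.5% of the 511 matched genes that were higher in S. mikatae, in 20.7% of the 444 that were lower and in 20.4% of the 2408 that did not pass the test below. At least 2 cores, as in TPS1, GLC3 and PAI3, were present in 3.5% of the 6007 windows. The shares were 6.7% for the higher genes, 4.1% for the lower and 3.0% for those that did not pass, so the printed windows are not typical. These shares describe letters in S. cerevisiae and were not tested against each other. The Zap1 site occurred in 6 of the 6007 windows, and GATAAG in 14.7% of them.

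A total of 3366 genes had at least 10 counts in at least 2 of the 4 libraries and were tested with edgeR's quasi-likelihood test, with the day as a block. The test called 956 genes at an adjusted p below 0.05, which is 28.4% of those tested. Of these, 512 were higher in S. mikatae (15.2%) and 444 were lower (13.2%). The ratio had the same sign on both days for 952 of the called genes, and it exceeded 2-fold on both days for 672. Scaled CPM, the counts of a gene relative to all reads of the tested genes in a library with composition factors applied, did not overlap between the 2 species for 938 of the 956, against 60.9% of all genes tested. The number of calls depended on how the spread was estimated. With 1 residual degree of freedom the fit gave every gene the spread of genes at its level, so a gene's own variation between cultures carried no weight. Without the day as a block 653 genes were called, which is 19.4%, and a fit of all 8 libraries, in which the gene's own spread did count, called 659 of 2707 genes (24.3%). The chi-square of the study, rebuilt from its description, called 717 of the 3437 genes at p below 0.01 (20.9%). Of the 765 called genes that the fit of 8 libraries also covered, 639 were called again, all in the same direction. Dropping the block and 1 library at a time left 641 calls without S. mikatae replicate 1, 302 of 3334 (9.06%) without S. mikatae replicate 2, 249 without S. paradoxus replicate 1 and 371 without S. paradoxus replicate 2. In all, 140 genes were called in each of these 4 fits, 64 of them higher in S. mikatae. Wherever a gene or list is given below without 1 library, the block was dropped as well. A gene for which these fits are not mentioned below need not have passed in all of them. PRM5, POT1, DAL4, GID10, YJL218W, CTT1, TPS1 and TPS2 are examples that did not. With library totals in place of composition factors the median log2 ratio of all genes was 0.21 instead of −0.01, and 627 genes were called higher and 308 lower.

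Ratios between the species were spread more widely than those between cultures of 1 species. The standard deviation of the log2 ratio of S. mikatae to S. paradoxus was 1.23 over genes in replicate 1 and 1.29 in replicate 2. Replicate 2 over replicate 1 gave 0.80 within S. mikatae and 0.75 within S. paradoxus. The share of genes beyond 2-fold was 36.5% and 39.2% between species, against 17.3% between the S. mikatae cultures and 14.4% between the S. paradoxus cultures. Genes are not replicates, and these are descriptions with no test.

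**Figure D1:**
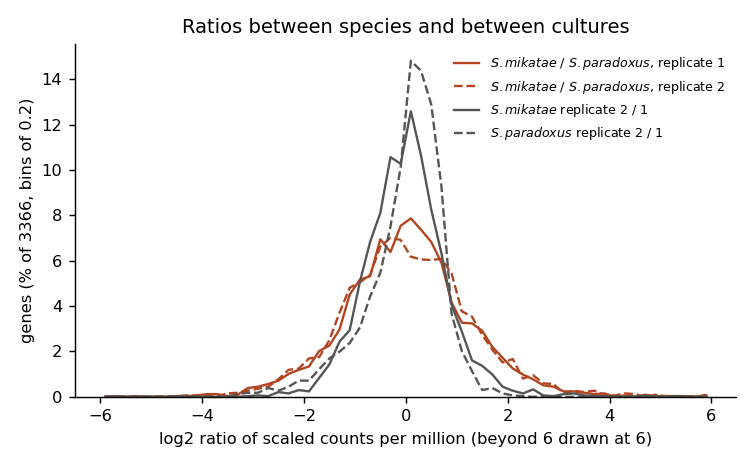
Distribution over 3366 genes of log2 ratios of scaled CPM, between species on each day (orange) and between the 2 cultures of each species (grey). The orange curves are broader, with standard deviations of 1.23 and 1.29 against 0.80 and 0.75.

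**Figure D2:**
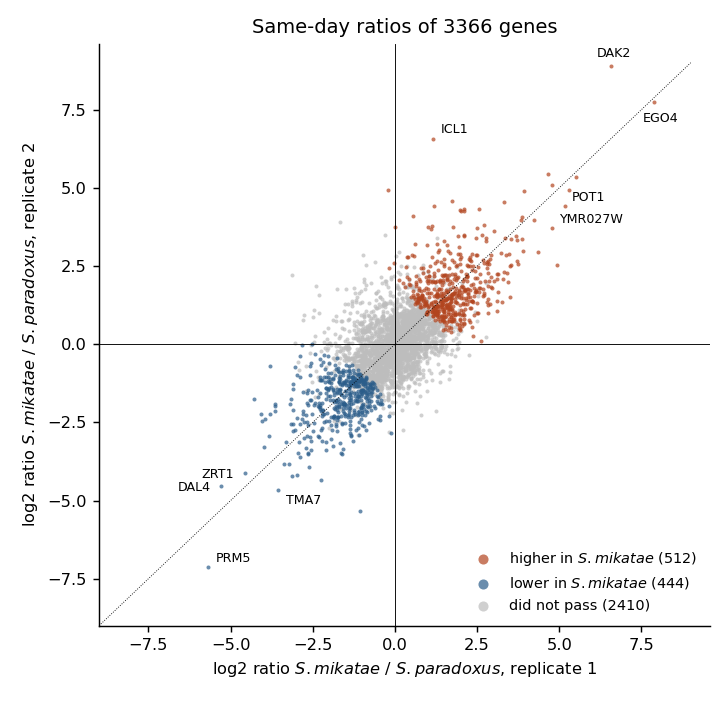
Log2 ratio of S. mikatae to S. paradoxus for each gene in replicate 1 (horizontal) and replicate 2 (vertical), with a prior count of 2. Points are coloured by the edgeR call. The 512 higher and 444 lower genes lie mostly along the dotted line of equal ratios, whereas ICL1 lies far above it.

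The largest increases in S. mikatae were those of EGO4 and DAK2. DAK2, a dihydroxyacetone kinase, had 2042 and 22941 counts in S. mikatae and 13 and 35 in S. paradoxus, a log2 ratio of 8.0 ± 0.63 (standard error, edgeR adjusted p = 9.01e-33). The S. mikatae cultures themselves were over 10-fold apart, and both lay far above S. paradoxus. EGO4 had 1562 and 6124 counts in S. mikatae and 3 and 20 in S. paradoxus (log2 ratio 8.04 ± 0.59). The size of the EGO4 ratio is uncertain, since its counts in S. paradoxus were few. YBR085C-A, a small open reading frame, had 19051 and 22033 counts in S. mikatae and 279 and 417 in S. paradoxus (log2 ratio 5.43 ± 0.57). In this gene the cultures of each species lay close together.

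STF2, which stabilises the inhibited form of the mitochondrial ATPase, had 387 and 575 counts in S. mikatae against 8 and 11 in S. paradoxus (log2 ratio 5.17 ± 0.54). Its partner INH1, the ATPase inhibitor, had 507 and 690 counts against 22 and 30 (log2 ratio 4.04 ± 0.48). Both genes passed in every fit that left out 1 library. PAI3 and its chromosome neighbour SIP18, which is induced by osmotic stress, were high together. PAI3 had 77 and 187 counts in S. mikatae and 2 and 3 in S. paradoxus, and SIP18 had 30 and 49 against 0 and 2. In S. paradoxus both genes had 3 counts or fewer in each library, so no ratio is given. Further genes among the 15 highest were GID10, a substrate receptor of the GID ubiquitin ligase, with 165 and 329 counts against 3 and 4, and PIR5 of the cell wall Pir family, with 511 and 952 against 17 and 45. HSP30, a plasma membrane heat shock protein gene, had 1485 and 5884 against 99 and 193 (log2 ratio 3.95 ± 0.46), again with the larger value in S. mikatae replicate 2. YJL218W, with 263 and 232 against 3 and 4, and HAB1, with 27 and 38 against 0 and 3, were also in this set, as were POT1 and ICL1, which are described with their pathways. YMR027W had 56571 and 37277 counts in S. mikatae against 1389 and 2170 in S. paradoxus (log2 ratio 4.25 ± 0.62).

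The largest decreases in S. mikatae included transporters and mating genes. PRM5, a membrane protein gene induced by pheromone and cell wall stress, had 6 and 1 counts in S. mikatae and 283 and 366 in S. paradoxus, a log2 ratio of −6.98 ± 0.62 (edgeR adjusted p = 1.80e-25). The size of the PRM5 ratio is uncertain, since its counts in S. mikatae were few. TMA7, a ribosome-associated protein gene, had 0 counts in both S. mikatae libraries and 16 and 45 in S. paradoxus. Against a floor of 3 counts per library it was at least 7.93-fold lower in S. mikatae on the first day and at least 19.6-fold lower on the second. No other tested gene was at 0 in both libraries of one species. TMA7 did not pass without S. mikatae replicate 2, where its adjusted p was 0.0546.

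IKI1, a subunit of Elongator, had 54 and 90 counts in S. mikatae and 592 and 697 in S. paradoxus (log2 ratio −3.67 ± 0.43). SWT1, an RNA endonuclease gene, had 82 and 38 against 450 and 560, and PPN2, a polyphosphatase gene, had 176 and 71 against 729 and 861. In each of these genes the S. mikatae libraries lay below both S. paradoxus libraries, and each passed in all 4 fits that left out 1 library. SLI15, a subunit of the chromosomal passenger complex, had 15 and 7 counts against 107 and 100 but did not pass without S. mikatae replicate 2 (adjusted p = 0.0555). ESC8, a silencing gene, had 61 and 6 against 202 and 129, so its S. mikatae cultures were far apart. The protein kinase gene RCK1, with 17 and 10 against 94 and 114, the spore wall transporter gene DTR1, with 2 and 0 against 23 and 11, and IRC10, with 0 and 8 against 23 and 42, completed the lowest genes together with DAL4, ZRT1, STE3, GPX2 and GPA1, which are described with their groups.

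Trehalose and glycogen genes were the list with the highest share of calls among those with at least 9 tested members. The lists were chosen with earlier results of these data known, so this rank is a description and not a test. Of 12 members tested, 10 were higher in S. mikatae, none was lower and 2 did not pass, beside 15.2% of all genes tested. The median log2 ratio of the list was 2.10, and that of all genes was −0.01. TPS1 had 12706 and 12316 counts in S. mikatae and 1537 and 2954 in S. paradoxus (log2 ratio 2.07 ± 0.47). TPS2, the trehalose phosphatase, had 4676 and 6374 against 989 and 1959 (log2 ratio 1.49 ± 0.43). The glycogen synthase gene GSY1 had 1031 and 1948 against 92 and 223 (log2 ratio 2.83 ± 0.41). For all 3 the species did not overlap, as in 98.1% of all called genes and 60.9% of all genes tested.

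The genes of glycogen branching and breakdown were higher on both days but differed strongly between the S. mikatae cultures. GLC3 had 1317 and 11118 counts in S. mikatae and 222 and 435 in S. paradoxus (log2 ratio 3.15 ± 0.47), and GPH1, glycogen phosphorylase, had 1091 and 8317 against 221 and 264 (log2 ratio 3.17 ± 0.48). Replicate 2 of S. mikatae carried most of these reads. GDB1, the debranching enzyme, had 4905 and 11008 against 487 and 846 (log2 ratio 3.04 ± 0.46). The glycogenin genes GLG1 and GLG2, the trehalase gene ATH1 and the UDP-glucose gene UGP1 were also higher, by 1.40 to 2.54 on the log2 scale. TSL1, a regulatory subunit of trehalose synthesis, had 6748 and 4109 counts against 1711 and 2595 (log2 ratio 0.84, adjusted p = 0.134), and the trehalase gene NTH1 had 2502 and 2432 against 2341 and 3444 (log2 ratio −0.68, adjusted p = 0.22). Without S. mikatae replicate 2, 8 of the 12 were higher, TSL1 among them (adjusted p = 0.0468). Without S. paradoxus replicate 1 there were 5, and without S. paradoxus replicate 2 there were 7. The AGGGG core was present in the S. cerevisiae windows of 7 of the 12.

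**Figure D3:**
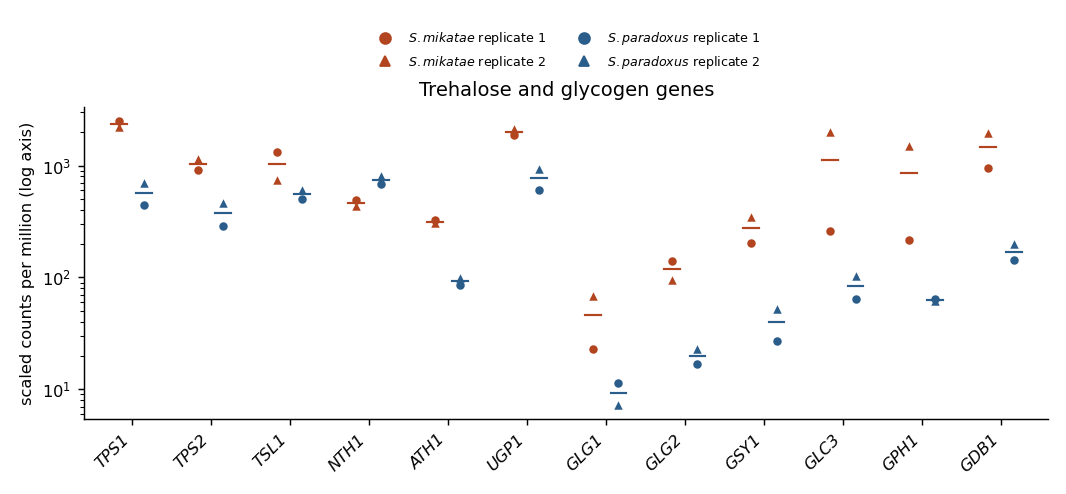
Scaled CPM (log axis) of the 12 trehalose and glycogen genes in each library, with S. mikatae (orange) left of S. paradoxus (blue), circles for replicate 1, triangles for replicate 2 and lines at the mean of 2. All but NTH1 have both S. mikatae values above both S. paradoxus values, and GLC3 and GPH1 show the widest gap between the S. mikatae cultures.

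Among 22 general stress genes tested, 12 were higher in S. mikatae and 3 were lower, beside 15.2% and 13.2% of all genes tested. The median log2 ratio of the list was 1.15. HOR7, a small gene induced by high osmolarity, had 14622 and 19135 counts in S. mikatae and 688 and 923 in S. paradoxus (log2 ratio 3.91 ± 0.52). CTT1, the cytosolic catalase, had 963 and 887 against 121 and 194 (log2 ratio 2.11 ± 0.40), and TFS1, an inhibitor of carboxypeptidase Y, had 1421 and 2317 against 184 and 310 (log2 ratio 2.45 ± 0.41). The cell wall gene SPI1 had 341 and 1818 against 52 and 121, again with the larger value in S. mikatae replicate 2, and did not pass without that library (adjusted p = 0.085). The 2 related regulators of these genes differed in opposite directions. MSN2 had 236 and 382 counts in S. mikatae and 886 and 1676 in S. paradoxus (log2 ratio −2.5 ± 0.41), and MSN4 had 937 and 1741 against 405 and 528 (log2 ratio 0.99 ± 0.39, adjusted p = 0.0443). MSN2 passed in all 4 fits that left out a library, and MSN4 did not pass without S. mikatae replicate 2 (adjusted p = 0.229). GPX2, a glutathione peroxidase gene, had 16 and 14 counts in S. mikatae and 107 and 233 in S. paradoxus (log2 ratio −3.87 ± 0.59). Without S. mikatae replicate 2 or S. paradoxus replicate 1, 7 of the list were higher. The AGGGG core was in the windows of 16 of the 22.

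Of 10 gluconeogenesis and glyoxylate cycle genes tested, 5 were higher in S. mikatae and none was lower (median log2 ratio 1.59). Among all genes tested, 15.2% were higher and 13.2% lower. With no block the numbers were again 5 and none, and without S. mikatae replicate 2 as well, 1 of 9 was higher and 1 was lower. ICL1, isocitrate lyase of the glyoxylate cycle, had 36 and 1094 counts in S. mikatae and 10 and 7 in S. paradoxus (log2 ratio 4.39 ± 0.63). ACS1, an acetyl-CoA synthetase, had 224 and 2094 against 34 and 79 (log2 ratio 3.31 ± 0.45), and the lactate permease gene JEN1 had 761 and 4624 against 240 and 275 (log2 ratio 2.40 ± 0.45). These 3 did not pass without that library, with adjusted p of 0.327 for ICL1, 0.117 for ACS1 and 0.0764 for JEN1. MDH3, the peroxisomal malate dehydrogenase, was even between cultures, with 3047 and 3882 counts in S. mikatae against 488 and 830 in S. paradoxus (log2 ratio 1.95 ± 0.42), and did pass (adjusted p = 0.0191).

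Of 11 peroxisomal beta-oxidation genes, 4 were higher and 2 lower, beside 15.2% and 13.2% of all genes tested. POT1, the thiolase of the pathway, had 345 and 298 counts in S. mikatae and 5 and 9 in S. paradoxus (log2 ratio 5.04 ± 0.59), whereas POX1, the oxidase of its first step, had 60 and 183 against 307 and 290 (log2 ratio −1.96 ± 0.45). FOX2, which encodes the enzyme between them, had 356 and 801 against 61 and 70 (log2 ratio 2.56 ± 0.44). The gene of the first step was lower, and those of the following steps were higher. CRC1, a carnitine carrier, had 37 and 1142 counts in S. mikatae against 29 and 27 in S. paradoxus. Its call (log2 ratio 2.56 ± 0.57) came from replicate 2 of S. mikatae, and without it the adjusted p was 0.987. CRC1, IZH1, NOC3 and RCR1 were the 4 called genes whose ratio did not have the same sign on both days.

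Of 30 genes of the respiratory chain and ATP synthase, 13 were higher in S. mikatae, 1 was lower and 16 did not pass, beside 15.2% higher and 13.2% lower among all genes. The median log2 ratio of the list was 0.63. NDI1, the internal NADH dehydrogenase, had 2662 and 3704 counts in S. mikatae and 366 and 436 in S. paradoxus (log2 ratio 2.5 ± 0.43). TIM11, the e subunit of ATP synthase, had 707 and 594 against 34 and 76 (log2 ratio 3.17 ± 0.45), and QCR8 of complex III had 898 and 1161 against 89 and 220 (log2 ratio 2.38 ± 0.40). ATP7, a stalk subunit of ATP synthase, was lower, with 387 and 332 counts against 538 and 538 (log2 ratio −1.06 ± 0.39). The external dehydrogenase gene NDE2 had 365 and 2350 against 162 and 195 and did not pass without S. mikatae replicate 2 (adjusted p = 0.334). The list held 7 higher genes without S. mikatae replicate 2, 3 without S. paradoxus replicate 1 and 8 without S. paradoxus replicate 2. Of 13 TCA cycle genes, 3 were higher and 1 lower. MDH1, mitochondrial malate dehydrogenase, had 2385 and 4124 counts in S. mikatae against 318 and 425 in S. paradoxus (log2 ratio 2.61 ± 0.43).

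Of 55 mitochondrial ribosomal protein genes, 13 were higher in S. mikatae and 2 were lower (median log2 ratio 0.39). Among all genes tested, 15.2% were higher and 13.2% lower. MRPL20 had 262 and 281 counts in S. mikatae against 19 and 44 in S. paradoxus, and RSM23, one of the lower genes, had 224 and 152 against 324 and 549. The list of mitochondrial ribosomal protein genes held fewer higher genes in the fits that left out 1 library and had no block.

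Of 14 genes tested under the name pattern for cytosolic ribosomal proteins, which excludes most duplicated ribosomal genes through the rule on shared reads, none was higher, 4 were lower in S. mikatae and 10 did not pass, beside 13.2% lower among all genes. RPS2 had 7623 and 7249 counts in S. mikatae and 17498 and 29654 in S. paradoxus (log2 ratio −2.09 ± 0.54). RPP2A, a stalk protein gene, had 1442 and 1507 against 4328 and 6427 (log2 ratio −2.32 ± 0.45), and both passed in all 4 fits that left out a library. RPP1A and RPL5 were also lower, at log2 ratios of −1.78 and −1.41.

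Ribosome biogenesis genes gave no single direction. Of 75 tested, 4 were higher and 10 were lower, beside 15.2% and 13.2% of all genes, so the lower calls lay near the background. The median log2 ratio was −1.0 on the first day and 0.44 on the second. With library totals the list had 5 higher and 5 lower genes. The assembly factor gene RPF2 had 45 and 101 counts in S. mikatae against 283 and 264 in S. paradoxus (log2 ratio −2.47), and TIF6, a factor of the large subunit, had 945 and 2237 against 3150 and 6305 (log2 ratio −2.09). NMD3, an export adapter, had 1000 and 2021 against 302 and 382 (log2 ratio 1.59). KRR1, with 100 and 91 against 392 and 70, had a log2 ratio of −1.31, which was 0.13 without S. paradoxus replicate 1.

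Some amino acid genes were lower in S. mikatae. The counts of these lists stand beside 15.2% higher and 13.2% lower among all genes tested. Of 14 threonine, serine and one-carbon genes, 1 was higher and 5 were lower (median log2 ratio −0.81). SHM2, the cytosolic serine hydroxymethyltransferase, had 8086 and 10977 counts in S. mikatae against 19557 and 41273 in S. paradoxus (log2 ratio −2.07 ± 0.56). HOM2 of the threonine and methionine branch had 4792 and 3849 against 8688 and 14262 (log2 ratio −1.85 ± 0.49). This list had 2 lower genes in each of the 4 fits that left out 1 library. Of 5 lysine genes, LYS12 and LYS9 were lower. LYS12, homoisocitrate dehydrogenase, had 731 and 633 counts against 3064 and 5587 (log2 ratio −3.08 ± 0.45), and LYS9 had 3081 and 1812 against 6228 and 14105 (log2 ratio −2.47 ± 0.49). Of 5 branched-chain genes none passed, of 7 arginine genes 1 was lower, and of 19 sulfur and methionine genes 2 were higher. TAT2, the tryptophan permease, had 19 and 112 counts in S. mikatae against 221 and 460 in S. paradoxus (log2 ratio −3.18 ± 0.47). SNZ1 and its neighbour SNO1, which make vitamin B6, were both lower. SNZ1 had 857 and 2961 counts against 7249 and 9919 (log2 ratio −2.89 ± 0.49), and SNO1 had 223 and 195 against 310 and 610 (log2 ratio −1.54 ± 0.41).

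**Figure D4:**
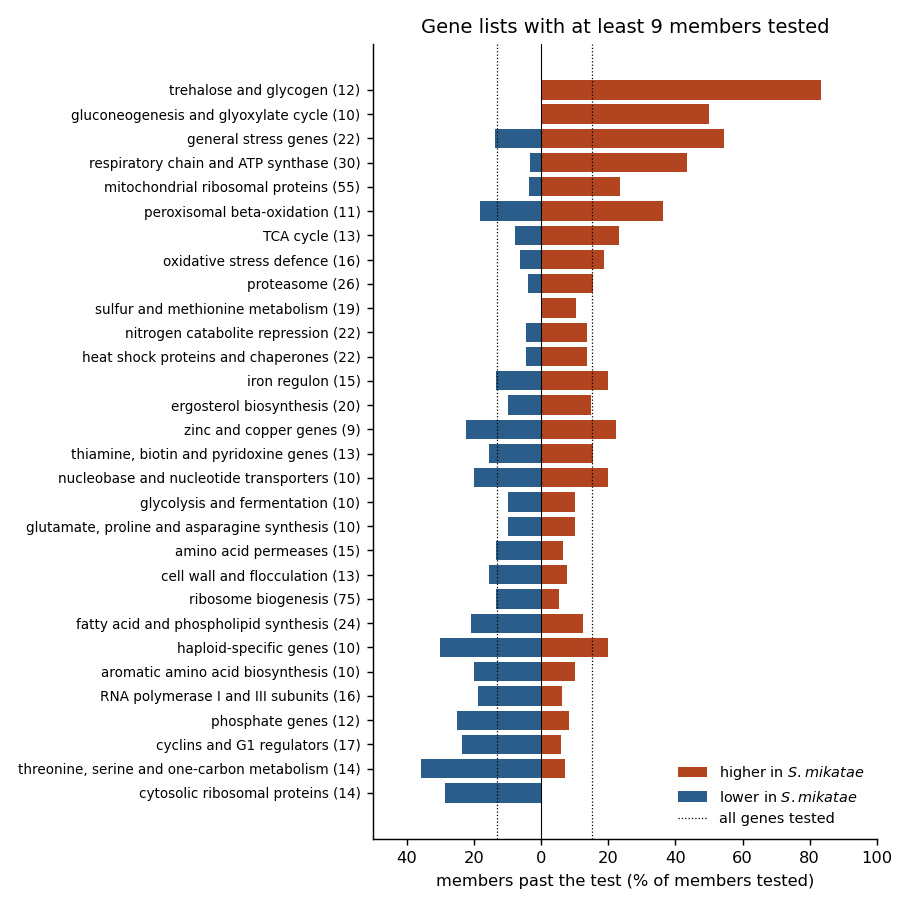
Percentage of tested members that were higher (orange, right) or lower (blue, left) in S. mikatae, for lists with at least 9 tested members, whose number is in brackets. Dotted lines mark all genes tested (15.2% higher, 13.2% lower), and trehalose and glycogen lies farthest to the right with 10 of 12. The lists were chosen with earlier results of these data known.

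Among the 15 lowest ratios, the metal transporter gene ZRT1 had the largest counts, with 1852 and 2326 counts in S. mikatae and 29699 and 30967 in S. paradoxus, a log2 ratio of −4.35 ± 0.60 (edgeR adjusted p = 9.33e-11). ZRT3, the vacuolar zinc exporter, had 1335 and 3000 against 4093 and 3441 (log2 ratio −1.38 ± 0.44). Of 9 zinc and copper genes, 2 were higher and 2 lower, beside 15.2% and 13.2% of all genes tested. The higher members IZH1 and IZH4, membrane proteins linked to zinc, had most of their counts in S. mikatae replicate 2. IZH1 had 493 and 6977 counts against 333 and 392, and IZH4 had 104 and 933 against 34 and 52. Without that library neither passed (adjusted p = 0.887 for IZH1 and 0.418 for IZH4). The Zap1 site stood upstream of 4 tested genes in S. cerevisiae. ZRT1 was lower in S. mikatae, ZRG17, a zinc transporter of the secretory pathway, was higher (542 and 685 counts against 154 and 269), and MCD4 and MRX15 did not pass.

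Of 15 iron genes, 3 were higher and 2 lower, near the 15.2% and 13.2% of all genes tested. FTR1, the iron permease, had 3212 and 2567 counts in S. mikatae and 281 and 272 in S. paradoxus (log2 ratio 2.90 ± 0.43), and FRE3, a siderophore reductase, had 88 and 223 against 1031 and 807 (log2 ratio −3.16 ± 0.43). Both passed in all 4 fits that left out a library. Of 12 phosphate genes, 1 was higher and 3 were lower, beside 15.2% and 13.2% of all genes tested. The regulator gene PHO4 had 52 and 61 counts against 328 and 281 (log2 ratio −2.90), and GIT1, a glycerophosphoinositol permease gene, had 12 and 28 against 133 and 108 (log2 ratio −3.12).

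The allantoin cluster split at DAL4 and DAL2. DAL4 had 3 and 5 counts in S. mikatae and 137 and 130 in S. paradoxus (log2 ratio −5.49 ± 0.74), whereas DAL2 had 618 and 821 against 43 and 81 (log2 ratio 3.11 ± 0.44). In both genes the species did not overlap, in opposite directions, and 98.1% of all called genes did not overlap either. The size of the DAL4 ratio is uncertain, since its counts in S. mikatae were few. DAL7, malate synthase of allantoin use, was higher with 285 and 236 against 60 and 108 (log2 ratio 1.2 ± 0.46, adjusted p = 0.0341), and DAL1, which encodes the first enzyme, had 71 and 143 against 77 and 51 (log2 ratio 0.21, adjusted p = 0.825). The GATA factor gene GAT1 had 159 and 339 against 28 and 43 (log2 ratio 2.27 ± 0.51). Without S. mikatae replicate 2, DAL7 and GAT1 did not pass (adjusted p = 0.111 and 0.118). Over 22 genes subject to nitrogen catabolite repression, 3 were higher and 1 lower, beside 15.2% and 13.2% of all genes tested. GATAAG was in the S. cerevisiae windows of 11 of these 22.

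Genes that a diploid keeps low were detected in all libraries. Summed over 11 measured haploid-specific genes, S. mikatae had 159 and 170.0 scaled CPM and S. paradoxus had 208 and 175. Over 3 a-specific genes the sums were 4.71 and 17.6 in S. mikatae against 30.3 and 56.3 in S. paradoxus. Over 4 alpha-specific genes they were 129 and 109 against 199.8 and 213, mostly from SAG1, at 116 and 94.0 against 155 in each S. paradoxus library. No member of the 3 lists was at 0 in any library, but some rested on very few reads. The lowest a-specific values in S. mikatae were 0.196 and 0.179 scaled CPM. In S. paradoxus replicate 2 the lowest haploid-specific value was 0.234. Of 10 haploid-specific genes tested, 2 were higher and 3 lower in S. mikatae, beside 15.2% and 13.2% of all genes tested. GPA1, the G protein alpha subunit of mating, had 9 and 17 counts in S. mikatae and 107 and 113 in S. paradoxus (log2 ratio −3.58 ± 0.67), and STE4, the beta subunit, had 3 and 13 against 19 and 39. FUS3, the mating kinase, went the other way with 116 and 395 against 27 and 44 (log2 ratio 2.18 ± 0.51). The pheromone receptor genes STE2 and STE3 were both lower, STE2 with 15 and 72 counts against 54 and 125 and STE3 with 8 and 10 against 70 and 135 (log2 ratio −3.91 ± 0.72). STE3 overlaps another listed gene in the annotation of both species. Whether haploid cells were present in any culture was not tested. Without S. mikatae replicate 2, STE2, STE4 and FUS3 did not pass (adjusted p = 0.0848, 0.119 and 0.241).

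Single genes of the lipid, wall and redox lists passed in either direction. The ergosterol list had 3 higher and 2 lower of 20, and the oxidative stress list 3 and 1 of 16. The cell wall list had 1 and 2 of 13, and the fatty acid and phospholipid list 3 and 5 of 24. Among all genes tested, 15.2% were higher and 13.2% lower. OLE1, the fatty acid desaturase, had 20951 and 89465 counts in S. mikatae and 5834 and 7385 in S. paradoxus (log2 ratio 2.24 ± 0.61), with adjusted p = 0.0522 without S. mikatae replicate 2. In the ergosterol pathway ERG27 had 3170 and 2905 against 213 and 452 (log2 ratio 2.81 ± 0.43). ERG27 overlaps the listed gene MIM2 in the annotation of S. mikatae but no listed gene in that of S. paradoxus. ERG4, the last step, had 2243 and 908 against 5559 and 6718 (log2 ratio −2.58 ± 0.47). The peroxiredoxin gene TSA1 had 21464 and 12514 counts in S. mikatae against 45286 and 107529 in S. paradoxus (log2 ratio −2.57 ± 0.68), whereas the thioredoxin gene TRX2 had 5007 and 6031 against 473 and 1279 (log2 ratio 2.34 ± 0.44). EXG1, the main exoglucanase of the wall, had 2785 and 1982 against 11833 and 16927 (log2 ratio −3.07 ± 0.52). In glycolysis, PYK2, a minor pyruvate kinase, was higher with 2572 and 3067 against 375 and 530 (log2 ratio 2.18 ± 0.42), and PGI1, phosphoglucose isomerase, was lower with 21779 and 16473 against 38287 and 58991 (log2 ratio −1.81 ± 0.61). The remaining 8 of the 10 glycolysis and fermentation genes did not pass. CLB1, a mitotic cyclin, had 126 and 73 counts against 564 and 573 (log2 ratio −3.04 ± 0.43), and of 17 cyclins and G1 regulators 1 was higher and 4 were lower.

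Of 8 tested genes picked from those that the study names, SNO1 passed and the other 7 did not. Among all genes tested, 28.4% were called. The study names the picked genes for changes in S. cerevisiae or S. bayanus, or as genes measured by quantitative PCR. It does not name them for a difference between S. mikatae and S. paradoxus, so the calls here are no test of those changes. Further genes named in the study, such as INH1, DAL4, POT1 and PRM5, did pass and are described above. IPP1, inorganic pyrophosphatase, had 7318 and 7311 counts in S. mikatae against 3770 and 7605 in S. paradoxus (log2 ratio −0.03 ± 0.45). NCE102 had 766 and 898 against 601 and 809 (log2 ratio −0.23 ± 0.39), and TSC3 of sphingolipid synthesis had 231 and 225 against 92 and 120 (log2 ratio 0.64 ± 0.45). The amino acid permease gene AGP1, YDL124W, the nitric oxide oxidoreductase gene YHB1 and the meiosis repressor gene RME1 had log2 ratios of −0.73, −0.70, −0.63 and −1.67. RME1 had at most 12 counts in any library, so its standard error was 1.2.

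Levels in S. cerevisiae and S. bayanus were set beside those of the called genes. Among the called genes that were measured in all 4 species, 419 were higher in S. mikatae. In 113 of them both other species lay nearer to S. paradoxus, in 120 both lay nearer to S. mikatae, and in 186 they were split. Among the 346 lower genes the numbers were 96, 97 and 153. No single position held most of the genes in either direction. Genes that did not pass were not counted in this way, and no test was made. On the scale of the 8-library fit, DAK2 had 532 and 5538 scaled CPM in S. mikatae, 5.09 and 10.9 in S. paradoxus, 10.2 and 17.0 in S. cerevisiae and 83.7 and 48.3 in S. bayanus. PRM5 had 1.56 and 0.241 in S. mikatae, 111 and 114 in S. paradoxus, 270 and 100.1 in S. cerevisiae and 153 and 114 in S. bayanus. These are genes in which S. mikatae stood apart from the other 3. IKI1 had 14.1 and 21.7 in S. mikatae, 232 and 217 in S. paradoxus, 41.4 and 50.5 in S. cerevisiae and 42.6 and 81.4 in S. bayanus. For this gene S. paradoxus was the highest and S. mikatae the lowest. ZRT1 had 482 and 562 for S. mikatae, 11640 and 9634 for S. paradoxus and 768 and 350 for S. cerevisiae, with S. bayanus intermediate at 3448 and 3033. POT1 was split by species. Its values were 89.8 and 71.9 for S. mikatae, with 84.1 and 54.3 for S. bayanus, against 1.96 and 2.80 in S. paradoxus and 0.511 and 1.12 in S. cerevisiae.

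**Figure D5:**
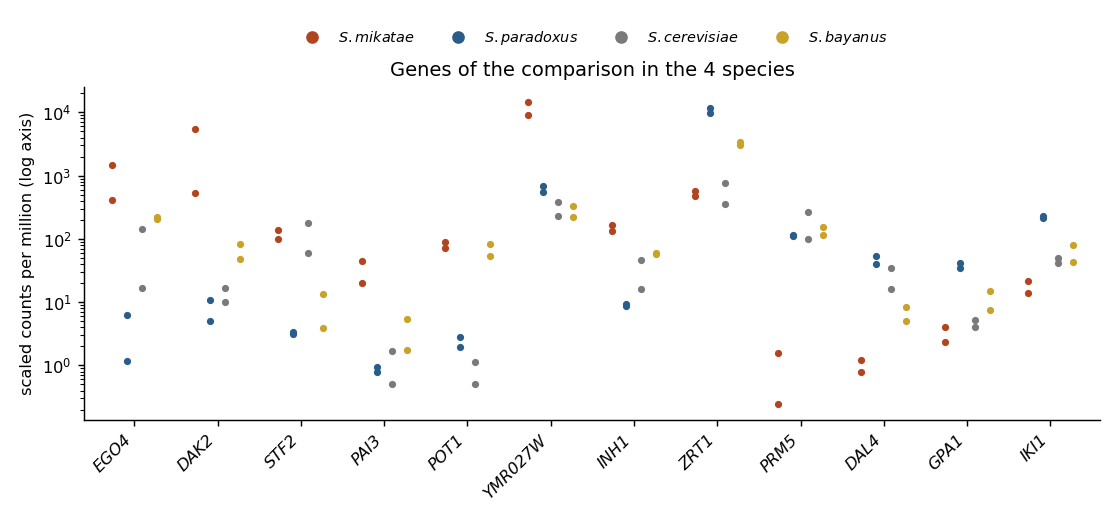
Scaled CPM (log axis) of 12 genes in the 2 libraries of S. mikatae (orange), S. paradoxus (blue), S. cerevisiae (grey) and S. bayanus (yellow), from the fit of 8 libraries. DAK2 is highest and PRM5 and IKI1 are lowest in S. mikatae, GPA1 and IKI1 are highest in S. paradoxus, and POT1 is high in S. mikatae and S. bayanus.

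The share of genes called varied with level and length. With the genes divided by mean level into 4 bins of 841 or 842 genes, the share called was 17.8% in the lowest bin and 31.5%, 34.2% and 30.0% in the others, in order of level. Divided in the same way by S. cerevisiae length, it was 31.6% in the bin of shortest genes, up to 804 bases, and 24.5% in the longest, from 1848 bases. A total of 2182 pairs of adjacent genes in S. cerevisiae had both members tested. Among them, PAI3 and SIP18 had the largest joint increase, by the smaller change of the pair. That rank rests on 3 counts or fewer in each S. paradoxus library, so the size of the increase is uncertain. DAL4 with DAL2 was the largest opposite pair. No test was made of these shares.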

How the data were processed

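Counts were deposited as sheets of reads per annotated gene, with columns of uniquely aligned reads and of all aligned reads for 2 libraries per species. The authors aligned 35-base SOLiD reads to the genome of each species with MOSAIK, allowing 2 mismatches, and did not scale the deposited counts by gene length. The submitters' processing notes name the sacCer2 build, and scaffolds of the other species were joined from contigs. Whether counting used the strand is not given in the sources used here.

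Unique counts were tested with edgeR 4.0.16 in R 4.3.3 (estimateDisp, glmQLFit and glmQLFTest at default settings, TMM factors, species and day terms, Benjamini-Hochberg over 3366 genes, threshold 0.05). The 71 remaining genes had fewer than 10 counts in 3 or more libraries. Log2 ratios are S. mikatae over S. paradoxus, and their standard error is the ratio divided by the root of F. Same-day ratios carry a prior count of 2. The day is a stated preparation day, and the change between days correlated across genes between the species (Pearson 0.215). The fit was tested on simulated data, drawn with the spread shared by genes of like level. That simulation cannot show how a gene's own spread between cultures would change the calls. Alternatives used DESeq2 1.42.0, limma 3.58.1 and the study's chi-square, rebuilt from its description with the p-values of the days combined by Fisher's method. Nothing but the separate isolates shows how far the replicates differ. With 2 per species, p-values and standard errors rest on a spread shared by genes of like level in these 4 libraries. They do not measure how far a gene's own cultures differed.

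Genes named in the text were the 15 highest and the 15 lowest ratios among genes that passed, with one direction in both replicates and at least 20 counts in the highest library, list members that passed, 9 genes picked from those the study names, and genes at 0 counts in one species. Genes outside that rule (ZRG17, MCD4, MRX15, RCR1 and members that did not pass) were named after their values were seen. Other list members that passed are counted with their lists but not described. The members and the 43 lists were chosen with earlier results of these data known. Of 3437 genes, 3425 matched a locus of the R64 annotation.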

Additional observations from a re-analysis of the deposited data

Results flagged for a closer look

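In 10 list members the ratio of S. mikatae to S. paradoxus exceeded 2-fold in one direction on the first day and in the other on the second, and a difference between the days was not tested. None of these genes passed the test between the species. HSP12, a small membrane-protecting heat shock protein gene, had a log2 ratio of −1.67 in replicate 1 and 3.91 in replicate 2. The phosphate transporter gene PHO84 had −3.14 and 2.22, and the external NADH dehydrogenase gene NDE1 had −1.18 and 1.42. Among ribosome biogenesis genes, the ratios were −2.31 and 1.57 for NOP12, −1.23 and 1.65 for UTP11, −1.2 and 1.33 for UTP14, −1.15 and 1.02 for MAK16, and −1.06 and 1.3 for BUD22. In the opposite order, AHA1, an activator of Hsp90, had 1.26 and −2.13, and the cell wall mannoprotein gene CWP1 had 1.37 and −1.2.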

How the results depend on the processing

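Results kept their direction under most settings, and the number of calls moved most with the replicate block and with single libraries. With no replicate block, 653 genes were called, 341 of them higher in S. mikatae (512 with the block) and 312 lower. Without 1 library and with no replicate block, a lone library being assumed to vary like the other species, the calls ranged from 249 to 641 (302 without S. mikatae replicate 2, 371 without S. paradoxus replicate 2), those higher in S. mikatae from 107 to 402 (174 and 192 without those libraries) and those lower from 128 to 239 (179 without S. paradoxus replicate 2 and 142 without S. paradoxus replicate 1). Among 211 genes that passed and met the rule for naming, those that no longer passed were 47 with no replicate block, 59 of 203 without S. mikatae replicate 1, 100 of 203 without S. mikatae replicate 2, 113 of 206 without S. paradoxus replicate 1, 88 of 206 without S. paradoxus replicate 2, 84 with the chi-square of the study, 26 with library totals and 24 with DESeq2. Of the 956 calls, 564 were among the 717 of the chi-square, which is 59.0% of the one list and 78.7% of the other, all in the same direction. The log2 ratio changed sign for KRR1 without S. paradoxus replicate 1 (0.13) and, among genes that did not pass, for IPP1 with library totals (0.19), without S. mikatae replicate 2 (0.0748) and without S. paradoxus replicate 2 (0.31). Counts moved by at most 1.5 times with DESeq2 size factors, other filters, all aligned reads, stricter length or uniqueness limits, a length offset, voom, DESeq2, the chi-square and all 8 libraries, where fewer genes were tested and 296 were lower. The cause of these shifts was not tested. Depth limited the genes with the lowest counts, and intervals cover no error of assembly or annotation.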

Other observations

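The counts of further groups stand beside 15.2% higher and 13.2% lower among all genes tested. Of 26 proteasome genes, 4 were higher in S. mikatae and 1 was lower. The catalytic core gene SCL1 had 1860 and 2127 counts in S. mikatae against 450 and 898 in S. paradoxus, whereas the regulator gene RPN4 had 673 and 282 against 516 and 1067. Of 22 heat shock and chaperone genes, 3 were higher and 1 lower, of 16 oxidative stress genes 3 were higher and 1 lower, and of 20 ergosterol genes 3 were higher and 2 lower. Of 24 fatty acid and phospholipid genes, 3 were higher and 5 lower, among them PIS1, phosphatidylinositol synthase, with 488 and 882 counts against 1643 and 2703. Of 13 cell wall genes, 1 was higher and 2 were lower. The single histone gene in the set, the variant HTZ1, had 66 and 140 counts in S. mikatae against 247 and 398 in S. paradoxus and was lower.

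Nucleotide and vitamin genes were mixed. ADE8 of purine synthesis had 1428 and 1221 counts in S. mikatae against 84 and 329 in S. paradoxus and was the 1 member of 6 that passed. Of 8 pyrimidine genes, 1 was higher and 2 lower, with URA3 at 279 and 249 against 30 and 47. Of 10 nucleobase and nucleotide transporters 2 were higher and 2 lower, and of 13 thiamine, biotin and pyridoxine genes 2 were higher and 2 lower. Among the 16 RNA polymerase I and III subunit genes, 1 was higher and 3 lower. The regulator gene GAL4 had 249 and 294 counts against 23 and 40 and was higher, and of 7 galactose genes 2 were higher and 1 lower. SNF3, a glucose sensor gene, was higher with 467 and 779 against 163 and 228, and the other hexose gene of 2 did not pass.

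Of 15 amino acid permeases, 1 was higher and 2 lower, of 10 aromatic genes 1 was higher and 2 lower, and of 5 histidine genes 2 were lower. Of 10 glutamate, proline and asparagine genes, ASN1 was higher, with 7982 and 5178 counts against 1982 and 2313, and GDH1 was lower, with 25205 and 9008 against 31432 and 46232. Of 6 ammonium and ion transport genes 1 was higher and 1 lower. Of 5 meiosis and sporulation genes tested, none passed. Of 17 such genes in the set, the other 12 had too few counts to be tested.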
